A study of Mus musculus with 24 samples.

Results

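The levels of 10 genes of the p53 and DNA damage response were followed across mouse livers that had or had not been exposed to a carcinogen, with and without the forkhead factors Foxa1 and Foxa2. They are Cdkn1a, Mdm2, Phlda3, Ccng1, Bax, Perp, Gadd45a, Gdf15, Zmat3 and Trp53inp1, taken by name as every non-control probe whose gene name, or the current symbol of its transcript accession, is one of them. This gave 14 of 41174 probes, and all 10 genes were among the 19290 genes measured above background on 4 or more of the 24 arrays. The rule used names and no measured value.

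RNA was hybridised to 24 single-colour arrays, 4 in each of 6 groups: untreated wild-type females, untreated Foxa1 and Foxa2 double-knockout (dKO) females, treated wild-type females, treated dKO females, treated wild-type males and treated dKO males. Treated mice had received diethylnitrosamine (DEN), which liver enzymes turn into a DNA-alkylating agent, at 20 mg/kg and 14 to 15 days of age, and from 2 weeks later 8 injections of TCPOBOP at 3 mg/kg, 1 every 2 weeks. TCPOBOP is an agonist of the receptor CAR that drives the growth of initiated liver cells. No group received DEN or TCPOBOP alone, so their effects cannot be told apart. The labels give the tissue of all 24 samples as liver tumor, untreated ones included, and the extraction protocol speaks of liver samples and sorted cells. There were no untreated males among the samples, so an effect of sex in treated mice cannot be told apart from a sex difference present without treatment. Age at collection, strain, the Cre driver of the knockout and whether replicates were separate animals are not stated in the sources used here. A p-value therefore reflects the spread among these samples, which may be technical.

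The transcription factor p53 is kept low by the ubiquitin ligase Mdm2 and is stabilised when kinases such as ATM, ATR and the checkpoint kinases sense DNA damage. It then raises genes that halt the cell cycle (Cdkn1a, Gadd45a, Ccng1), permeabilise mitochondria or weaken survival signals (Bax, Perp, Phlda3, Trp53inp1), stabilise other target mRNAs (Zmat3), signal to other tissues (Gdf15) and restrain p53 itself (Mdm2). Several of them also answer other inputs: Cdkn1a is raised by growth arrest and regeneration in liver without p53, Gadd45a and Gdf15 also belong to the integrated stress response, and Perp is a desmosomal protein of epithelia.

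p53 binds a pair of 10-base elements, here called decamers, and the windows of 250 bases before the RefSeq start sites (GRCm38.p6) were searched for the p53 decamer on both strands with no mismatch. RefSeq windows were at hand for 7 of the 10 genes, 9 windows in all, and 5 of the 9 held a match, against 7.13% of 32851 windows over all genes. The 5 windows are shown because they place the searched element beside the genes whose levels follow. Capitals mark each decamer match.
Cdkn1a, chr17:29090729-29090978, + strand: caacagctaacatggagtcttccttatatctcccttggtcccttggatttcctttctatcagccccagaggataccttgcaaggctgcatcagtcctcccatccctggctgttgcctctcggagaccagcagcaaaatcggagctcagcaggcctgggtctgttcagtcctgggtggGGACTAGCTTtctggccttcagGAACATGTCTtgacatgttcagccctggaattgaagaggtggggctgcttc
Mdm2, chr10:117710759-117711008, - strand: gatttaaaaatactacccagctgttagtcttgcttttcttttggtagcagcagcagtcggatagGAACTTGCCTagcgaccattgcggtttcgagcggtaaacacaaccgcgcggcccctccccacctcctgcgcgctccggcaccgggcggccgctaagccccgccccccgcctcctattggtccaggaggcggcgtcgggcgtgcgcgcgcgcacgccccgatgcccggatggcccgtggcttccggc
Ccng1, chr11:40755287-40755536, - strand: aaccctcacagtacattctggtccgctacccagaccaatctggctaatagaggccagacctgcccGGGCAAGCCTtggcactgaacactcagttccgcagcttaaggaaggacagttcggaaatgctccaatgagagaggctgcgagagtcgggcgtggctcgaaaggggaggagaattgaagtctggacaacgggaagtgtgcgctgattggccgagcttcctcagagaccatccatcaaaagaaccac
Bax, chr7:45466899-45467148, - strand: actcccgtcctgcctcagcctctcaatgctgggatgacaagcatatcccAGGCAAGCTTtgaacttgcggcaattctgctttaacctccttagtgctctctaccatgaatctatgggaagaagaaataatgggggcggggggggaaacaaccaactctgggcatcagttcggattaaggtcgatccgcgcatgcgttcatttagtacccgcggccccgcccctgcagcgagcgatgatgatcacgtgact
Gadd45a, chr6:67037408-67037657, - strand: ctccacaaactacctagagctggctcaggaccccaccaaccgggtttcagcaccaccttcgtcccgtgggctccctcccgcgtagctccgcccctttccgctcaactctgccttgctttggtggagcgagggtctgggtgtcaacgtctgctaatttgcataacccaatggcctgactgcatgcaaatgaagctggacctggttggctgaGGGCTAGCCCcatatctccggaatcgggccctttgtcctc
The upstream Cdkn1a start was the member window with 2 decamers, starting 73 and 51 bases before the start site and no more than 13 bases apart, an arrangement found in 21 windows, or 0.0639% of all. The Mdm2 match began 186, the Ccng1 match 185, the Bax match 201 and the Gadd45a match 40 bases before the start. No match lay in the windows of Phlda3, Gdf15 or the second Cdkn1a start, which says only that these letters are not in those windows. A match is a description of letters and no evidence of binding.

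All values below are log2 signals relative to the 75th percentile of their own array, which is set to 0, so that 1 unit is a 2-fold difference. A probe's level depends on its own sequence, so levels are compared between groups and never between genes. The 75th percentile ran from 435.0 to 960.0 signal units, and between 50.4% and 68.4% of spots were well above background. Foxa1 was well above background on 4 of 4 arrays of each wild-type group and on 0 of 4 of each dKO group, and Foxa2 averaged 3.69 to 4.45 in the wild-type groups against -6.06 to -3.99 in the dKO groups. The 10 hepatocyte markers were well above background on all 24 arrays. Their mean level lay between 6.27 and 6.91 on every array outside the treated dKO females, where it was 6.10, 3.77, 6.53 and 5.73 in replicates 1 to 4. Replicates 2 and 4 of that group also stood apart in the p53 genes, as described below, so the calls of the 10 genes, the counts and the named genes of the further lists are given for that group with and without them wherever leaving them out changed a call. In bulk samples, fewer cells of a type and less RNA per cell cannot be told apart.

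**Figure D1:**
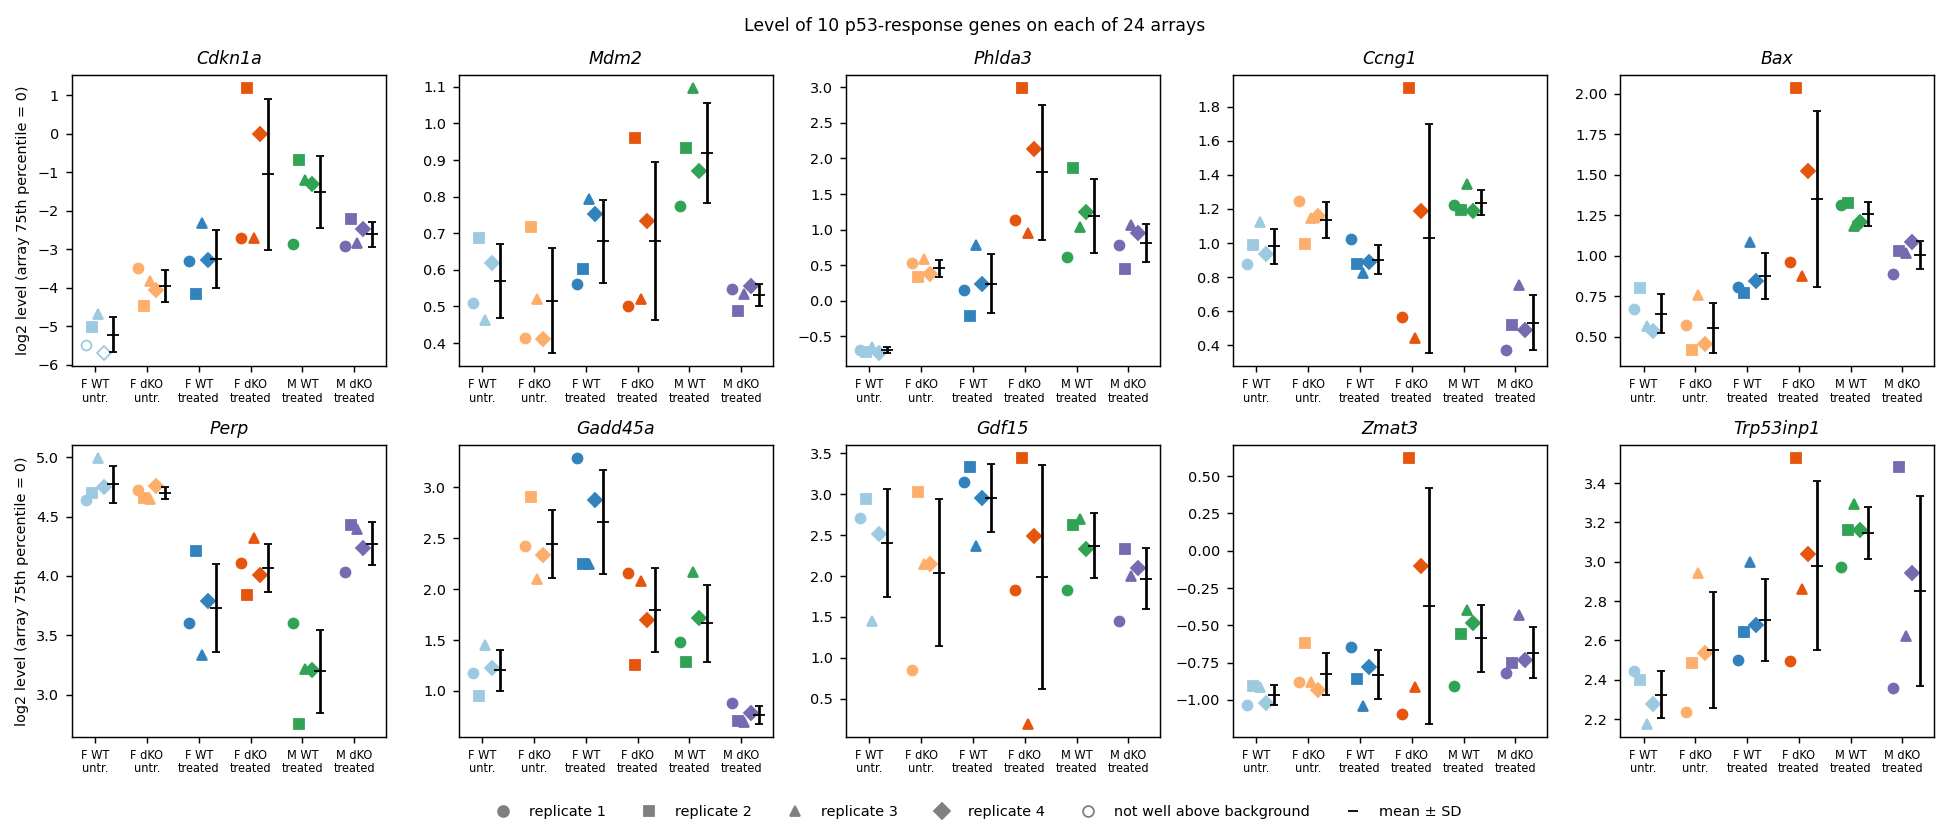
Level of each of the 10 genes (vertical axis, log2 signal with the array's 75th percentile at 0) on every array, by group (horizontal axis, F female, M male, untr. untreated). Symbols give the replicate, open symbols are not well above background, and black bars are the mean ± SD of 4 arrays. Cdkn1a, Phlda3, Bax, Ccng1 and Zmat3 of treated dKO females split into replicates 2 and 4 above replicates 1 and 3, and Gadd45a is lowest in treated dKO males.

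Treatment of wild-type females was accompanied by more Gadd45a and less Perp, calls that held in every alternative fit. Cdkn1a was called higher as well, but that call was lost in 15 of 19 alternative fits. The other 7 genes did not pass the test. Gadd45a encodes a small stress sensor that binds PCNA and cyclin-dependent kinase complexes, and its probe lies at chr6:66985376-66985435 (mm9, minus strand). Its level was 1.18, 0.95, 1.45 and 1.23 in untreated and 3.29, 2.24, 2.25 and 2.87 in treated wild-type females, so that every treated array lay above every untreated one. The difference was 1.46 ± 0.24 (log2 ± SE, n = 4 and 4), with an adjusted p of 0.000475 from limma with Benjamini-Hochberg adjustment over 19290 genes, the test behind every adjusted p here. Perp encodes a membrane protein of desmosomes that can promote apoptosis (chr10:18576697-18576756, mm9, plus strand). It was 4.64, 4.70, 4.99 and 4.75 in untreated and 3.60, 4.21, 3.33 and 3.78 in treated wild-type females, again without overlap. It fell by 1.04 ± 0.17 (limma adjusted p = 0.000466).

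Cdkn1a encodes p21, the inhibitor of cyclin-dependent kinases through which p53 arrests the cycle, and its probe lies at chr17:29237377-29237436 (mm9, plus strand). In untreated wild-type females it was near the limit of detection, at -5.48, -5.03, -4.68 and -5.70, with replicates 2 and 3 well above background and replicates 1 and 4 not. Treated wild-type females measured -3.31, -4.15, -2.31 and -3.28, all well above background and all higher than any untreated array. The fitted difference was 1.96 ± 0.66 (limma adjusted p = 0.0467). When 1 of the 8 arrays was left out, the adjusted p ran from 0.0382 to 0.152 and the call held only without treated replicate 2. Of 11 alternatives that kept all arrays, 3 kept the call, and the value fell to 0.78 (adjusted p = 0.341) with normexp background correction.

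Phlda3, whose product competes with AKT for membrane lipids and so dampens survival signalling (chr1:137665642-137665701, mm9, plus strand), measured -0.69, -0.72, -0.64 and -0.74 in untreated and 0.16, -0.22, 0.79 and 0.23 in treated wild-type females. These groups did not overlap, but the difference of 0.94 ± 0.33 had an adjusted p of 0.0576. It passed in 3 of 12 alternatives that kept all arrays, among them the fit on these 2 groups alone (SE 0.20, limma adjusted p = 0.0194). Of the others, Gdf15 differed by 0.55 ± 0.52, Trp53inp1 by 0.38 ± 0.21, Bax by 0.23 ± 0.17, Zmat3 by 0.14 ± 0.24, Mdm2 by 0.11 ± 0.10 and Ccng1 by -0.08 ± 0.20, and none passed (adjusted p 0.243 to 0.842). The Trp53inp1 groups did not overlap, and those of the other 5 did. In all, 3 of the 10 genes were called in this comparison against 17.2% of all genes, with a median difference of 0.31 over the 10 genes and -0.06 over all genes. Within the 3 slides that carried both groups, the difference ran from 0.79 to 2.11 for Gadd45a, from -1.04 to -0.78 for Perp and from 0.53 to 2.42 for Cdkn1a. Macrophage markers were higher for 3 of 8 in treated wild-type females (mean level 2.84 to 3.03 against 1.14 to 2.28), those of B and plasma cells for 4 of 5 (-1.85 to -0.96 against -2.45 to -2.18) and those of neutrophils for 2 of 4 (-1.97 to -0.28 against -4.61 to -2.71). The part of these cells in the differences was not tested.

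With treatment of dKO females, Cdkn1a, Phlda3 and Bax rose, and Perp and Gadd45a fell. Cdkn1a measured -3.50, -4.48, -3.83 and -4.05 in untreated and -2.70, 1.20, -2.72 and 0.0004 in treated dKO females. The treated arrays were all higher than the untreated ones but lay almost 4 units apart among themselves, and their SD of 1.97 was larger than that of 99.2% of genes in the group. The difference was 2.91 ± 0.66 (limma adjusted p = 0.00224). Phlda3 was 0.54, 0.33, 0.58 and 0.38 in untreated and 1.14, 2.99, 0.95 and 2.13 in treated dKO females. Its groups did not overlap, and it rose by 1.35 ± 0.33 (adjusted p = 0.00382, limma).

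Bax encodes the protein that opens the mitochondrial outer membrane in apoptosis, and its 60-base probe covers 156 bases of the genome at chr7:52721469-52721624 (mm9, minus strand), so that it skips sequence within that span. It was 0.57, 0.42, 0.76 and 0.46 in untreated and 0.96, 2.04, 0.88 and 1.53 in treated dKO females, without overlap, a difference of 0.80 ± 0.17 (limma adjusted p = 0.00153). Perp was 4.73, 4.66, 4.65 and 4.76 in untreated and 4.11, 3.84, 4.32 and 4.01 in treated dKO females. It fell by 0.63 ± 0.17 (limma adjusted p = 0.00729), again without overlap. Gadd45a, at 2.43, 2.90, 2.10 and 2.34 in untreated dKO females, was 2.16, 1.25, 2.08 and 1.70 in treated ones. The ranges overlapped, and the fall of 0.65 ± 0.24 had an adjusted p of 0.0406, which passed 0.05 in 3 of the 8 fits that left out 1 array (untreated replicate 3, treated replicate 1 or treated replicate 3; -0.77 to -0.46, adjusted p 0.0257 to 0.161).

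Thus 5 of the 10 genes were called in treated against untreated dKO females, where 37.8% of all genes were called, and the median difference was 0.30 over the 10 genes and -0.07 over all genes. Mdm2, Ccng1, Gdf15, Zmat3 and Trp53inp1 differed by -0.11 to 0.46 and did not pass. Within the 3 slides with both groups the differences ran from 0.80 to 5.25 for Cdkn1a, from 0.61 to 2.61 for Phlda3, from 0.39 to 1.58 for Bax, from -0.92 to -0.62 for Perp and from -1.20 to -0.27 for Gadd45a. Without treated replicates 2 and 4, an alternative chosen after seeing the data, Bax still rose (0.37 ± 0.11, limma adjusted p = 0.0321) and Ccng1 fell (-0.63 ± 0.11, adjusted p = 0.000931), while Cdkn1a differed by 1.26 (adjusted p = 0.0911), Phlda3 by 0.59 (0.142), Perp by -0.48 (0.122) and Gadd45a by -0.33 (0.449). The 2 arrays left out were the highest for Ccng1, which lowers its mean by construction, so its p-value there is no test. Leaving out a single treated replicate also brought in Zmat3 (0.70 without replicate 1 and 0.64 without replicate 3), Trp53inp1 (0.59 without replicate 1) and Ccng1 (-0.40 without replicate 2). Markers of other cells moved in the same comparison: hepatocyte markers were lower for 6 of 10 after treatment (mean level 3.77 to 6.53 against 6.67 to 6.90), stellate and fibroblast markers higher for 7 of 10 (2.37 to 3.13 against 1.39 to 1.90) and bile duct markers higher for 5 of 10 (-1.13 to -0.25 against -1.97 to -1.39). With treated replicates 1 and 3 alone, 5 of 10 hepatocyte markers were lower and 1 higher, and 6 stellate and fibroblast and 5 bile duct markers were higher. The part of these cells in the differences of the 10 genes was not tested.

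**Figure D2:**
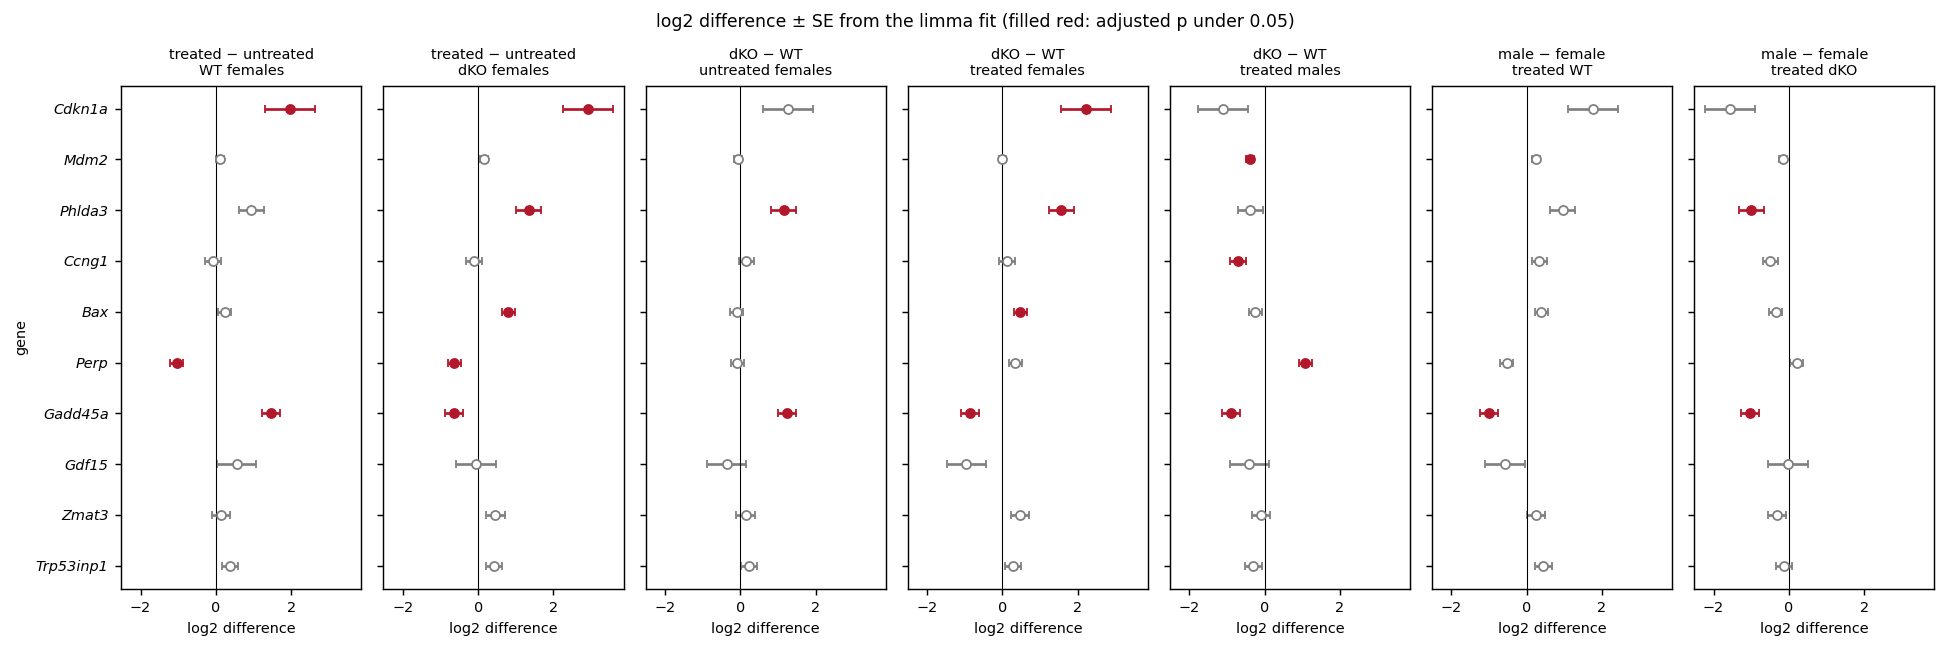
log2 difference (horizontal axis, ± SE from limma) of the 10 genes (vertical axis) in 7 comparisons, each named above its panel with the direction of subtraction. Filled red points have an adjusted p under 0.05 and open grey points do not. Gadd45a rises with treatment in wild-type females and falls in dKO females, and Perp is lower after treatment in both.

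The Gadd45a difference with treatment thus depended on genotype, and the test of that dependence passed. The test asks whether the 2 differences are unequal and not whether the direction reverses. The fall in dKO females alone did not hold in most fits given above. The genotype by treatment interaction in females was -2.11 ± 0.34 (limma adjusted p = 0.00251), which placed Gadd45a at rank 39 of 19290 genes by p. It was the 1 of 10 genes called, against 5.08% of all genes, with a median of 0.19 over the 10 genes and -0.02 over all genes. Leaving out any 1 of the 16 arrays kept the call, with values from -2.25 to -1.90, and without treated dKO replicates 2 and 4 the interaction was -1.79 ± 0.35 (adjusted p = 0.0167). Adding the position of the array on its slide as a term, a variable that nearly coincides with the groups, left the value at -2.15 but ended the call (adjusted p = 0.304). For Cdkn1a the interaction was 0.95 ± 0.94 (adjusted p = 0.608), so that its treatment differences of 1.96 and 2.91 are not shown to differ. The treatment comparisons and this interaction share their arrays.

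Without treatment, dKO livers already held more Gadd45a and Phlda3 than wild-type livers. Gadd45a was higher by 1.24 ± 0.24 (limma adjusted p = 0.00212), with the lowest dKO array at 2.10 and the highest wild-type array at 1.45. Phlda3 was higher by 1.15 ± 0.33 (adjusted p = 0.032, limma), with the lowest dKO array at 0.33 and the highest wild-type array at -0.64. The Gadd45a call held in each of the 8 fits that left out 1 array, and within the 2 slides with both groups the difference was 0.65 and 1.72. The Phlda3 difference stayed at 1.11 to 1.20 in those fits, yet its adjusted p passed 0.05 only without dKO replicate 2 (0.0468 to 0.0775), and within slides it was 1.02 and 1.23.

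Cdkn1a of untreated dKO females lay above that of untreated wild-type females on every array, but the difference of 1.26 ± 0.66 did not pass (adjusted p = 0.254), and 2 of the wild-type arrays were not well above background. That SE is pooled over all 6 groups. Fitted on these 2 groups alone, the SE was 0.28 and limma called the difference (adjusted p = 0.0236). It was the 1 call in 11 alternatives that kept all arrays, in which the difference ran from 0.15 to 1.57. The other 7 genes differed by -0.36 to 0.23. The 2 called genes compare with 9.76% of all genes, and the median difference was 0.15 over the 10 genes and -0.04 over all genes. Bile duct markers moved with genotype as well: 6 of 10 were higher and 1 lower in untreated dKO females, and their mean level was -1.97 to -1.39 there against -3.82 to -3.17 in untreated wild-type females. Stellate and fibroblast markers were higher for 3 of 10, macrophage markers for 2 of 8 and T and NK cell markers for 1 of 7, with 0 lower in each list. Of 10 hepatocyte markers, 1 was lower. The part of these cells in the Gadd45a and Phlda3 differences was not tested.

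In treated females, dKO livers held more Cdkn1a, Phlda3 and Bax and less Gadd45a than wild-type livers. Phlda3 was higher by 1.56 ± 0.33 (limma adjusted p = 0.00175), and its lowest dKO array, at 0.95, lay above its highest wild-type array, at 0.79. Gadd45a was lower, at -0.87 ± 0.24 (adjusted p = 0.0112, limma), with the highest dKO array at 2.16 and the lowest wild-type array at 2.24. Cdkn1a was higher by 2.21 ± 0.66 (limma adjusted p = 0.0171) and Bax by 0.47 ± 0.17 (adjusted p = 0.0445), but for both the ranges overlapped. Mdm2 had the same mean in both groups, 0.68, and a difference of 0.0006 ± 0.10.

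Of the 10 genes, 4 were called against 29.7% of all genes, with medians of 0.31 over the 10 genes and -0.07 over all genes. Perp, Zmat3, Trp53inp1, Ccng1 and Gdf15 did not pass, at 0.34, 0.46, 0.28, 0.12 and -0.96. Within the 2 slides with both groups the difference was 3.31 and 3.50 for Cdkn1a, 1.97 and 2.20 for Phlda3, 0.72 and 0.95 for Bax, and -1.59 and -0.997 for Gadd45a, and those slides carried dKO replicates 2 and 4. Fitted on these 8 arrays alone, limma called 0 of the 10 genes, with 3 at an unadjusted p under 0.05. With dKO replicates 1 and 3 alone, none of the 4 calls held: the differences were 0.56 for Cdkn1a (adjusted p = 0.535), 0.81 for Phlda3 (0.0594), 0.04 for Bax (0.862) and -0.55 for Gadd45a (0.227). In that fit Ccng1 and Gdf15 were lower in dKO females, by -0.40 ± 0.11 (adjusted p = 0.0199) and -1.94 ± 0.53 (adjusted p = 0.0215). Replicates 2 and 4 were the highest pair for both genes. Leaving them out lowers the dKO mean by construction, so these 2 p-values are descriptions and no test. Leaving out dKO replicate 2 alone ended the calls of Cdkn1a (1.46, adjusted p = 0.0808), Bax (0.24, 0.2) and Gadd45a (-0.68, 0.0527), and leaving out replicate 4 alone those of Cdkn1a (1.86, 0.0655) and Bax (0.41, 0.121). Among the wild-type arrays, omission of replicate 1 ended Gadd45a (-0.66, 0.0515) and Bax (0.45, 0.0982), of replicate 2 Cdkn1a (1.91, 0.0587) and Bax (0.44, 0.102), and of replicate 4 Bax (0.46, 0.0867). Bile duct markers were higher for 9 of 10 and stellate and fibroblast markers for 8 of 10 in treated dKO females, with mean levels of -1.13 to -0.25 against -3.39 to -2.13 and of 2.37 to 3.13 against 1.08 to 1.44. Hepatocyte markers were lower for 6 of 10. With dKO replicates 1 and 3 alone, 9 bile duct, 5 stellate and fibroblast and 0 hepatocyte markers were called. The part of these cells in the differences of the 10 genes was not tested.

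The spread among the 4 treated dKO females therefore bears on every comparison that includes them. Replicates 2 and 4 were the highest pair for 8 of the 10 genes and the lowest pair for Perp and Gadd45a. Ccng1, a cyclin that recruits phosphatase to Mdm2 (chr11:40564413-40564472, mm9, minus strand), was 1.91 and 1.19 in replicates 2 and 4 and 0.56 and 0.45 in replicates 1 and 3. Zmat3, an RNA-binding zinc-finger protein (chr3:32233831-32233890, mm9, minus strand), was 0.62 and -0.10 against -1.09 and -0.91. Gdf15, a secreted stress hormone (chr8:73153471-73153530, mm9, minus strand), was 3.44 and 2.49 against 1.83 and 0.20. Other gene groups divided the same arrays. In replicates 1, 2, 3 and 4, the mean level of 30 cell-cycle genes was -0.90, 0.70, -1.76 and -0.11, that of 35 other p53 targets -0.17, 0.46, -0.36 and 0.15, and that of the 12 integrated stress response genes 1.01, 2.42, 0.70 and 1.90. The hepatocyte mean was lowest in replicates 2 and 4. How far any of these accounts for the levels of the 10 genes was not tested.

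**Figure D3:**
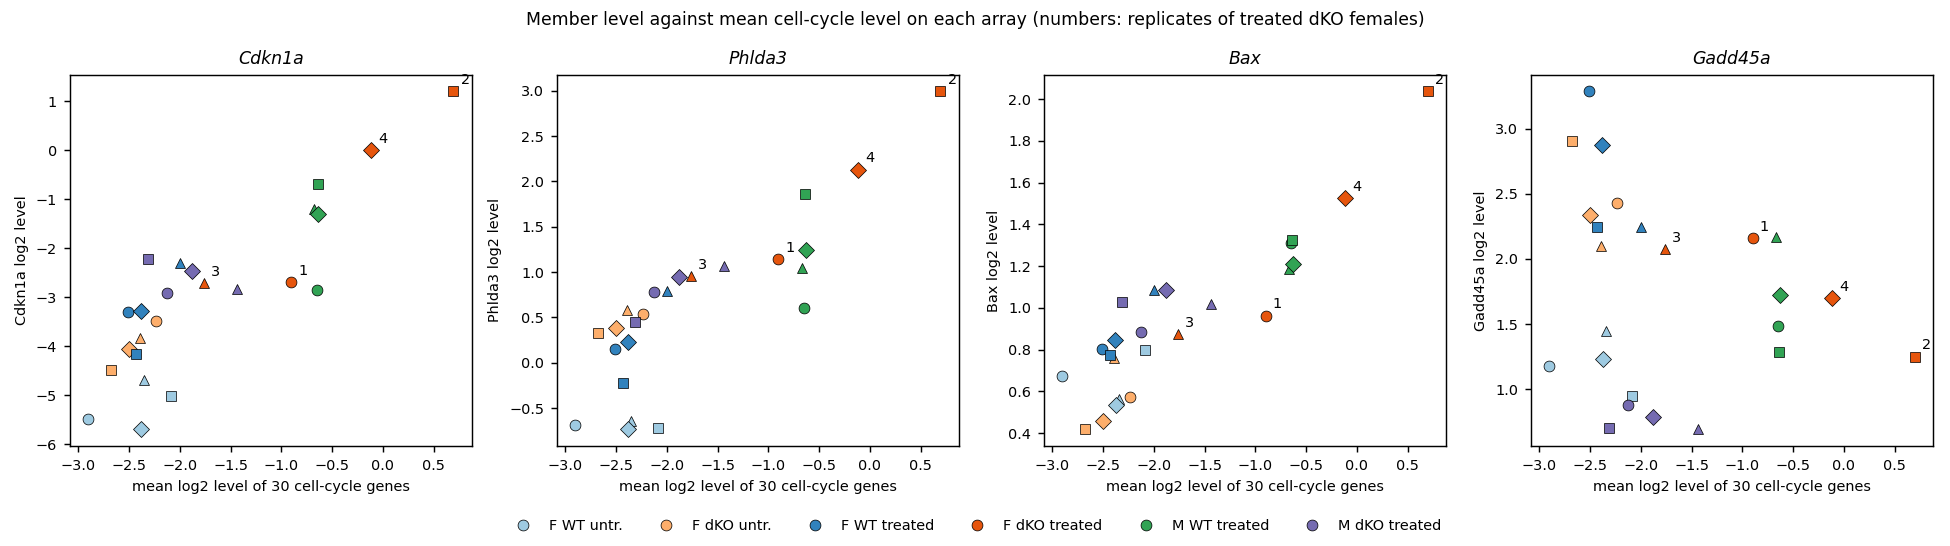
Level of Cdkn1a, Phlda3, Bax and Gadd45a (vertical axes, log2 signal with the array's 75th percentile at 0) against the mean level of 30 cell-cycle genes on the same array (horizontal axis), 1 point an array, coloured by group. Numbers mark replicates 1 to 4 of treated dKO females. Replicate 2 has the highest cell-cycle mean, 0.70, and the highest Cdkn1a, Phlda3 and Bax of all 24 arrays, while Gadd45a is not high there.

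Among treated males, dKO livers held more Perp and less Mdm2, Ccng1 and Gadd45a. Perp was 3.60, 2.75, 3.22 and 3.21 in wild-type and 4.03, 4.43, 4.40 and 4.24 in dKO males, without overlap, a rise of 1.08 ± 0.17 (limma adjusted p = 0.000106). Mdm2, the p53-inhibiting ubiquitin ligase (chr10:117126278-117126337, mm9, minus strand), was 0.77, 0.93, 1.10 and 0.87 in wild-type and 0.55, 0.49, 0.53 and 0.56 in dKO males. It was lower, at -0.39 ± 0.10 (limma adjusted p = 0.00924), and its second probe was lower as well (-0.60 ± 0.20, adjusted p = 0.0338 over 28051 probes). Ccng1 was 1.22, 1.20, 1.35 and 1.19 in wild-type and 0.37, 0.52, 0.75 and 0.49 in dKO males.

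The Ccng1 difference was -0.70 ± 0.20 (limma adjusted p = 0.0144), but its second probe, nearer the 3′ end of the transcript, differed by -0.22 ± 0.18 and did not pass (adjusted p = 0.424). Gadd45a was 1.48, 1.28, 2.17 and 1.72 in wild-type and 0.88, 0.70, 0.69 and 0.79 in dKO males, lower, at -0.90 ± 0.24 (limma adjusted p = 0.00928). All 4 genes had groups that did not overlap. Bax did not overlap either, but its difference of -0.25 ± 0.17 did not pass (adjusted p = 0.313), and Cdkn1a, at -2.86, -0.68, -1.19 and -1.31 in wild-type and -2.92, -2.22, -2.84 and -2.48 in dKO males, differed by -1.10 ± 0.66 (adjusted p = 0.246).

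The 4 calls stand against 25.3% of all genes, with a median of -0.38 over the 10 genes and 0.05 over all genes. Each of the 4 held in all 8 fits that left out 1 array, and none held with array position as a term, where all wild-type males share position 1. In that fit the differences were 1.60 for Perp (adjusted p = 0.0612), -0.70 for Mdm2 (0.198), -0.40 for Ccng1 (0.807) and -0.79 for Gadd45a (0.64). Within the 3 slides with both groups they ran from 0.82 to 1.67 for Perp, from -0.55 to -0.34 for Mdm2, from -0.98 to -0.44 for Ccng1 and from -1.29 to -0.58 for Gadd45a. Bile duct markers were higher for 9 of 10 in dKO males (mean level -0.59 to -0.13 against -3.74 to -2.55), and hepatocyte markers were called in neither direction (6.41 to 6.76 against 6.27 to 6.65). Stellate and fibroblast markers were higher for 4 of 10 and T and NK cell markers for 2 of 7, with 0 lower in either list. In B and plasma cells and in neutrophils 1 marker was higher, and in endothelial and erythroid cells 1 was lower. The part of all these cells in the differences was not tested.

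Between the sexes in treated wild-type livers, Gadd45a alone of the 10 genes passed. Males measured 1.28 to 2.17 and females 2.24 to 3.29, a male minus female difference of -0.999 ± 0.24 (limma adjusted p = 0.0162). That call was lost without male replicate 2 (-0.87, adjusted p = 0.0516), female replicate 1 (-0.79, 0.0662) or female replicate 4 (-0.93, 0.0564), and within the 2 slides with both sexes the difference was -0.77 and -0.71. Cdkn1a (1.75 ± 0.66, adjusted p = 0.129), Phlda3 (0.95 ± 0.33, 0.0978) and Bax (0.38 ± 0.17, 0.219) did not pass, although the lowest male Bax array, at 1.18, was above the highest female one, at 1.09. Ccng1 ranges did not overlap either, at 0.33 ± 0.20 (adjusted p = 0.381). The 1 call in 10 compares with 6.11% of all genes, and the median difference was 0.29 over the 10 genes and -0.03 over all genes.

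In treated dKO livers Gadd45a was again lower in males, at -1.03 ± 0.24 (limma adjusted p = 0.00597), with males at 0.69 to 0.88 and females at 1.25 to 2.16. Phlda3 was also lower in males, at -0.99 ± 0.33 (adjusted p = 0.0396, limma), but its ranges overlapped. The Phlda3 call was lost without male replicates 1, 2 or 4 or female replicates 2 or 4 (-1.04 to -0.60). Against female replicates 1 and 3 alone Phlda3 was -0.24 (adjusted p = 0.719) and Gadd45a -1.35 ± 0.27 (adjusted p = 0.00688). Female replicates 2 and 4 were the highest pair for Phlda3 and the lowest for Gadd45a. Leaving them out shrinks the Phlda3 difference and enlarges that of Gadd45a by construction, so these 2 p-values are descriptions and no test. Within the 2 slides with both sexes Gadd45a differed by -1.46 and -1.38 and Phlda3 by -0.70 and 0.12. Those slides carried female replicates 1 and 3, so these values are not separate from that subset. These 2 calls compare with 20.5% of all genes, and the medians were -0.33 over the 10 genes and 0.07 over all genes. Cdkn1a, Bax and Ccng1 did not pass, at -1.56, -0.35 and -0.49. The second Ccng1 probe was lower in males and was called (-0.60 ± 0.18, limma adjusted p = 0.0267 over 28051 probes). The mean of the Ccng1 probes was called too (-0.55, limma adjusted p = 0.0458). Against female replicates 1 and 3 alone the first Ccng1 probe differed by 0.03.

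Whether the genotype difference itself depended on sex was tested by the sex by genotype interaction in treated mice, which is the dKO minus wild-type difference of males less that of females. It passed for Cdkn1a (-3.31 ± 0.94, limma adjusted p = 0.0263), Phlda3 (-1.95 ± 0.47, adjusted p = 0.0119, limma) and Perp (0.74 ± 0.24, adjusted p = 0.0496, limma), 3 of 10 genes against 12.6% of all genes. The median was -0.56 over the 10 genes and 0.11 over all genes. Cdkn1a differed between genotypes by 2.21 in females and -1.10 in males, Phlda3 by 1.56 and -0.38, and Perp by 0.34 and 1.08. For Gadd45a the interaction was -0.03 ± 0.34 (adjusted p = 0.966), with dKO minus wild type at -0.87 in females and -0.90 in males. Bax (-0.73 ± 0.24, adjusted p = 0.0559), Ccng1 (-0.83 ± 0.29, 0.0629) and Mdm2 (-0.39 ± 0.15, 0.0863) came close to the threshold.

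Without treated dKO females 2 and 4, none of the 3 interactions held: they were -1.66 for Cdkn1a (adjusted p = 0.166), -1.19 for Phlda3 (0.0626) and 0.60 for Perp (0.25). Fitted on the 4 treated groups alone, limma called 0 of the 10, with 6 at an unadjusted p under 0.05. When 1 array was left out, Phlda3 held in all 16 fits and Cdkn1a in 13, the exceptions being wild-type male 2 (-3.04), wild-type female 2 (-3.02) and dKO female 4 (-2.96), while Perp held in 4 of 16 (0.58 to 0.88).

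Trp53inp1, a promoter of autophagy and of p53 phosphorylation (chr4:11101174-11101233, mm9, plus strand), Zmat3 and Gdf15 were called in none of the 9 comparisons. Group means of Trp53inp1 ran from 2.32 in untreated wild-type females to 3.15 in treated wild-type males, those of Zmat3 from -0.97 to -0.37 and those of Gdf15 from 1.97 to 2.95. Each pair of neighbouring groups in the order of Gdf15 levels overlapped. A second Trp53inp1 probe differed in sign from the first for treatment, at -0.11 against 0.38 in wild-type and -0.11 against 0.43 in dKO females, and neither was called. A second Zmat3 probe was well above background on 0 of 24 arrays.

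The order of the 6 groups differed between genes. Cdkn1a and Phlda3 shared 3 leading groups, treated dKO females (-1.05 ± 1.97 and 1.80 ± 0.95, mean ± SD, n = 4), treated wild-type males (-1.51 ± 0.94 and 1.19 ± 0.52) and treated dKO males (-2.62 ± 0.32 and 0.81 ± 0.27). Neighbours in that order overlapped, and only untreated wild-type females, the lowest group (-5.22 ± 0.46 and -0.70 ± 0.04), were separate from the group next to them. Gadd45a was highest in treated wild-type females (2.66 ± 0.51) and untreated dKO females (2.44 ± 0.34), which overlapped, and lowest in treated dKO males (0.77 ± 0.09), which were separate from all others. Perp was highest in untreated wild-type (4.77 ± 0.15) and untreated dKO females (4.70 ± 0.05) and lowest in treated wild-type males (3.20 ± 0.35). The lead of treated dKO females rested on replicates 2 and 4: the mean of replicates 1 and 3 was -2.71 for Cdkn1a, below both groups of treated males, and 1.05 for Phlda3, below treated wild-type males.

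Over the 24 arrays, the 5 genes whose level correlated best with Cdkn1a among 13535 genes bright on all arrays were Anxa2 (Pearson r = 0.97), AK087259 (0.96), Npdc1 (0.96), Panx1 (0.95) and Phlda3 (0.95). Bax stood at rank 33 (r = 0.90), Trp53inp1 at 272 (0.80), Zmat3 at 391 (0.77) and Mdm2 at 1322 (0.61). Ccng1 (0.36), Gdf15 (0.09), Gadd45a (-0.11) and Perp (-0.68) followed. These correlations describe arrays that share groups and scaling, and without the treated dKO females they were 0.91 for Phlda3, 0.83 for Bax, 0.05 for Ccng1 and -0.82 for Perp.

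Genes upstream of these targets moved in both directions. Of 12 measured genes of the p53 circuit and damage sensors, 1 rose and 2 fell with treatment in wild-type females, 3 of 12 against 17.2% of all genes, and 1 rose and 2 fell in dKO females, 3 of 12 against 37.8% (medians -0.06 and 0.01). Trp53bp1, an adaptor at double-strand breaks, rose in both (0.36 ± 0.09 in wild-type and 0.26 ± 0.09 in dKO females), and Hipk2, a kinase that phosphorylates p53, fell in both (-0.31 ± 0.09 and -0.61 ± 0.09). Nbn, of the complex that binds broken ends, fell in dKO females (-0.34 ± 0.10). With treated dKO replicates 1 and 3 alone, Hipk2 kept its call (-0.59, adjusted p = 0.00322), and Trp53bp1 (0.28, adjusted p = 0.0768) and Nbn (adjusted p = 0.13) did not. Trp53 itself was called in none of the 9 comparisons, at 0.08 ± 0.31 and 0.23 ± 0.31 for treatment in wild-type females and then dKO females, and -0.23 ± 0.31 and -0.68 ± 0.31 for genotype in treated females and males. Mdm4, which blocks p53 transactivation, was not called either, at -0.56 ± 0.23 (adjusted p = 0.0664) for genotype in treated females. Atm, the kinase that senses double-strand breaks, fell by 0.45 ± 0.08 with treatment in wild-type females (limma adjusted p = 0.000799) and was higher by 0.32 ± 0.08 in treated dKO than wild-type males (adjusted p = 0.00478). Chek2, its downstream kinase, was higher by 1.06 ± 0.26 in treated dKO than wild-type females (adjusted p = 0.0048, limma), and Chek1, not well above background on any treated wild-type female array, was at least 2.02-fold higher there (adjusted p = 0.00402). Both calls were lost with treated dKO replicates 1 and 3 alone, at adjusted p = 0.14 for Chek2 and 0.136 for Chek1. Of the 12 genes, 0 were then higher and 1 lower, where 11.6% of all genes were called. Atr was lower, at -1.23 ± 0.12 in treated dKO than wild-type males (adjusted p = 4.95e-07).

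Other known p53 targets moved in both directions. Of 35 measured, 3 rose and 1 fell with treatment in wild-type females (median 0.13), where 8.47% of all genes rose and 8.71% fell, and 11 rose and 3 fell in dKO females (median 0.19), where 16.3% rose and 21.5% fell. In dKO females the largest changes were in Psrc1 (2.69 ± 0.59) and Ckap2 (at least 3.64-fold), which serve the mitotic spindle, in Ptp4a3 (1.83 ± 0.30), a phosphatase, and in Pmaip1 (1.62 ± 0.39), a BH3-only death protein. Psrc1 was also the largest in wild-type females (2.25 ± 0.59), where it was well above background on 1 of 4 untreated arrays. Between genotypes in treated females 12 were higher and 2 lower (median 0.28, with 13.5% and 16.3% of all genes), led by Ckap2 (2.67 ± 0.65), Psrc1 (2.17 ± 0.59), Ak1 (2.01 ± 0.29) and Gtse1 (2.01 ± 0.63). Ckap2 and Gtse1 were each well above background on 1 of 4 wild-type arrays. In treated males 6 were higher and 6 lower in dKO (median -0.05), with Ckap2 lower at -3.61 ± 0.65, Gtse1 at least 2.76-fold lower, and Ak1 (1.86 ± 0.29) and Pmaip1 (1.43 ± 0.39) higher. There 14.5% of all genes were higher and 10.8% lower. With treated dKO replicates 1 and 3 alone, 4 rose and 1 fell with treatment, and 3 were higher between genotypes in females. In that fit 16.5% and 11.6% of all genes were called. Of the genes named for treatment, Psrc1 (1.13, adjusted p = 0.0477) and Ptp4a3 (1.08, 0.00293) then kept their calls and Ckap2 and Pmaip1 did not, and of those named between genotypes in females only Ak1 did (1.98, 0.0018).

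Among genes that repair alkylated or broken DNA, Mgmt was lower after treatment in both genotypes. Mgmt, which removes alkyl groups from guanine, fell by 0.82 ± 0.11 in wild-type (limma adjusted p = 4.84e-05) and by 0.88 ± 0.11 in dKO females (adjusted p = 1.27e-05), and it was lower in dKO than wild-type livers, at -0.64 ± 0.11 in untreated and -0.71 ± 0.11 in treated females. Of the 22 genes, 0 rose and 3 fell with treatment in wild-type females, the others being Brca1 (-1.15 ± 0.26) and Brca2 (-0.75 ± 0.14), while 6 rose and 2 fell in dKO females. These 3 of 22 and 8 of 22 called genes compare with 17.2% and 37.8% of all genes. Between genotypes in treated females 6 were higher and 2 lower, among them Fancd2 (1.59 ± 0.40), Brca1 (1.51 ± 0.26) and Alkbh2 (0.79 ± 0.18). In treated males 1 was higher and 4 lower in dKO. Over all genes, 13.5% were higher and 16.3% lower between genotypes in treated females, and 14.5% and 10.8% in treated males. With treated dKO replicates 1 and 3 alone, 3 rose and 1 fell with treatment, and 3 were higher and 1 lower between genotypes in females, against 16.5% and 11.6% of all genes called. Mgmt, Brca1 (1.03, adjusted p = 0.0122) and Alkbh2 (0.74, 0.0394) then kept their calls, and Fancd2 (1.02, 0.158) did not.

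Gadd45a and Gdf15 are shared with the integrated stress response, so its genes are set beside them. Of 12 measured, 7 rose and 0 fell with treatment in dKO females and 7 were higher and 0 lower in treated dKO than wild-type females (16.3% and 13.5% of all genes were higher). With treatment in wild-type females 2 were higher and 1 lower, where 8.47% of all genes were higher and 8.71% lower. The latter were Atf3 (1.25 ± 0.38) and Trib3 (1.12 ± 0.35), higher, and Chac1 (-1.43 ± 0.46), lower, and Trib3 also rose in dKO females (1.35 ± 0.35). The largest differences between genotypes in treated females were those of the cystine transporter gene Slc7a11, at least 24.7-fold higher in dKO (limma adjusted p = 0.000319), of the hormone Fgf21 (4.64 ± 0.85), of Asns (2.44 ± 0.68) and of Chac1 (1.59 ± 0.46). Slc7a11 was not well above background on any wild-type array. In treated males 5 were higher and 1 lower in dKO, with Vldlr at 1.03 ± 0.36 and Ddit3 at 0.61 ± 0.17, and Slc7a11 at least 2.54-fold lower. There 14.5% of all genes were higher and 10.8% lower. With treated dKO replicates 1 and 3 alone, 4 rose with treatment and 3 were higher between genotypes in females, where 16.5% and 11.6% of all genes were called. Among the latter 3 were Slc7a11 (adjusted p = 0.00142) and Fgf21 (0.0259), while Asns (0.315) and Chac1 (0.244) lost their calls. Gadd45a was lower in treated dKO than wild-type females, opposite in sign to the 7 stress response genes called there. That Gadd45a call was lost with dKO replicates 1 and 3 alone (-0.55, limma adjusted p = 0.227). In untreated females Atf3, the 1 list gene called, was higher in dKO (1.61 ± 0.38), as was Gadd45a (1.24 ± 0.24). With treatment in wild-type females Gadd45a rose, as did Atf3 and Trib3, while Chac1 fell. A link of Gadd45a to these genes was not tested.

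Relatives of the 10 genes moved in both directions. Of 23 other inhibitors of cyclin-dependent kinases and Gadd45 or BCL2 relatives, 5 rose and 2 fell with treatment in wild-type females and 7 rose and 1 fell in dKO females. Over all genes, 8.47% rose and 8.71% fell in wild-type females, and 16.3% rose and 21.5% fell in dKO females. Gadd45b, the nearest relative of Gadd45a among them in name and role, rose with treatment in both wild-type (1.65 ± 0.34) and dKO females (1.54 ± 0.34, limma adjusted p = 0.00191), where Gadd45a fell, and it was lower in treated dKO females (-1.15 ± 0.34) and males (-1.90 ± 0.34). Cdkn2b, encoding the p15 inhibitor of CDK4 and CDK6, rose after treatment in females of either genotype (1.58 ± 0.37 in wild type, 1.93 ± 0.37 in dKO) and was higher in treated dKO than wild-type females (2.17 ± 0.37). Phlda2 rose in dKO females by at least 12.2-fold (adjusted p = 4.1e-05) and was lower in dKO than wild-type males, at -2.68 ± 0.72. With treated dKO replicates 1 and 3 alone, 5 of the 23 rose with treatment, Gadd45b, Cdkn2b and Phlda2 among them, where 16.5% of all genes were called. Between genotypes in females Cdkn2b then stayed higher (1.26, adjusted p = 0.00241) while Gadd45b was no longer called (-1.05, 0.142).

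The called cell-cycle genes all moved 1 way in each of the comparisons given here. Of 30, 24 rose with treatment in dKO females (median 2.28) against 0 rising and 3 falling in wild-type females (median 0.23). The share of all genes that rose was 16.3% in dKO and 8.47% in wild-type females, and 8.71% fell in wild-type females. Between genotypes in treated females 29 were higher in dKO, where 13.5% of all genes were higher. They were led by Ccnb1 (2.78 ± 0.62), Cdk1 (2.60 ± 0.53), Prc1 (2.54 ± 0.45) and Tpx2 (2.53 ± 0.59). In treated males 18 were lower and 0 higher in dKO. Males had 21 higher than females in wild type and 26 lower in dKO. Over all genes, 10.8% were lower in dKO males, 3.27% higher in males of wild type and 8.05% lower in males of dKO. The groups with the highest cell-cycle means, treated dKO females (-0.52 ± 1.05) and treated wild-type males (-0.65 ± 0.02), were also the groups with the highest mean Cdkn1a, Phlda3 and Bax, as the plot against the cell-cycle mean shows. For treated dKO females these high means rested on replicates 2 and 4, and with replicates 1 and 3 alone the mean was -2.71 for Cdkn1a, 1.05 for Phlda3 and 0.92 for Bax. In that fit 16 cell-cycle genes rose with treatment, 10 were higher between genotypes in females, and 1 instead of 26 was lower in males than females of dKO. The share of all genes called in these 3 comparisons was then 16.5%, 11.6% and 5.53%, against 37.8%, 29.7% and 20.5% with all arrays. Of the 4 genes named, Prc1 then kept its call between genotypes (adjusted p = 0.0133), and Ccnb1 (0.115), Cdk1 (0.0549) and Tpx2 (0.132) did not. These gene lists were chosen with results of these data known, and their counts are no independent evidence of a direction.

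**Figure D4:**
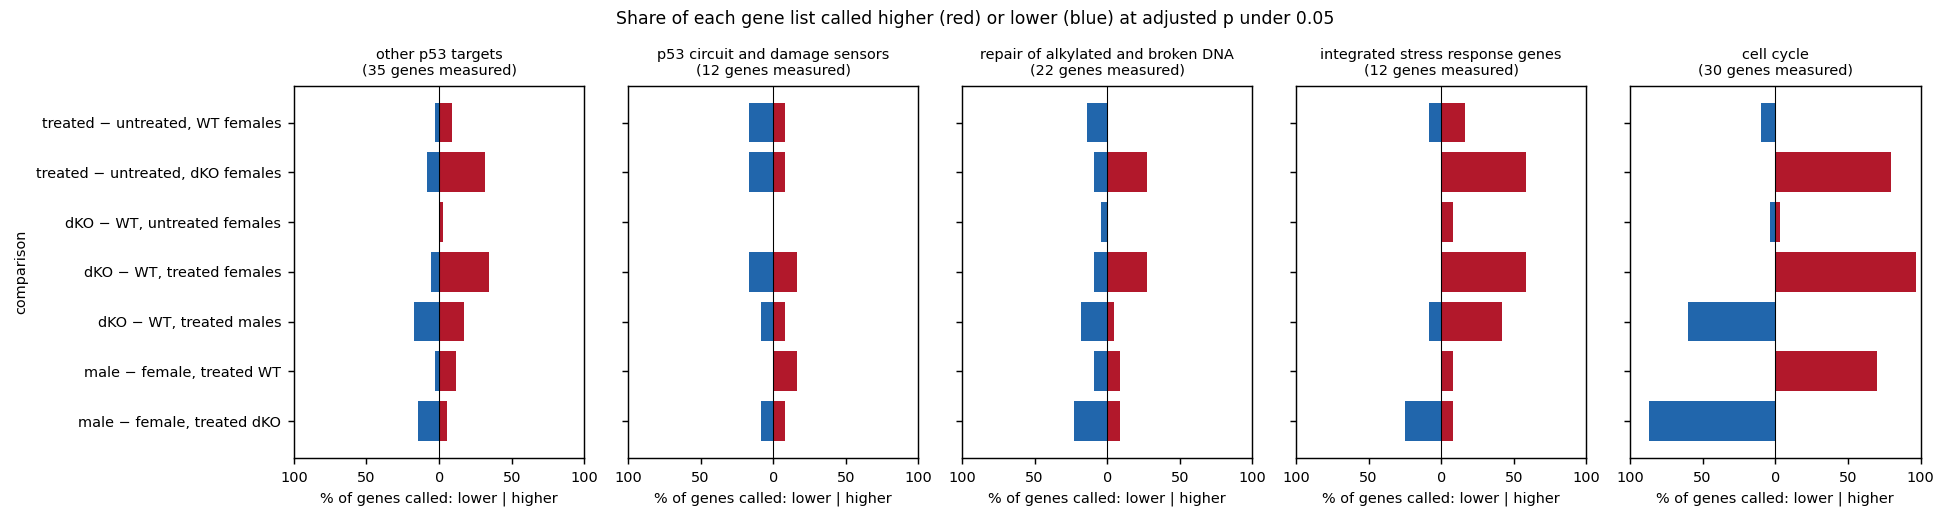
Share of the measured genes of 5 lists (panels) that were called higher (red, to the right) or lower (blue, to the left) at a limma adjusted p under 0.05 in 7 comparisons (vertical axis). The cell-cycle list reaches 29 of 30 genes higher in treated dKO females and 26 of 30 lower in dKO males than dKO females, counts that become 10 and 1 with treated dKO female replicates 1 and 3 alone, whereas the p53 circuit never passes 2 of 12 in either direction. With those 2 arrays fewer genes of any kind passed, 11.6% and 5.53% of all genes against 29.7% and 20.5%.

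The fold changes in the authors' deposited table had the same sign as the differences given here in 194 of 196 pairs of probe row and comparison for the 10 genes, where probes printed 10 times have several rows. The spots printed 10 times on each array differed by a median SD of 0.09 for Cdkn1a, 0.04 for Bax and 0.11 for the second Mdm2 probe.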

How the data were processed

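Per the labels, amplified cDNA was labelled with Cy3, and 24 Agilent single-colour arrays (4 in each of 6 groups) were scanned. The deposited intensity is the background-corrected processed signal of Feature Extraction, version 10.5.1.1 per the file headers and 9.53 per the submitters' processing notes. Flag columns (well above background, outlier) are a deposited score of 0 or 1. The authors' deposited table gives fold changes as a ratio and was used for signs only.

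Control and outlier spots (72 to 127 an array) were left out, spots of a probe averaged, and log2 signals scaled to the array's 75th percentile. Probes well above background on at least 4 arrays were kept, the brightest per gene. Group means were fitted with limma 3.58.1 (R 4.3.3) over 24 arrays, with Benjamini-Hochberg adjustment within each of 9 comparisons at 0.05. On simulated data for genotype in treated females (19224 genes), 22 of 67 genes changed 1.5-fold, 44 of 67 changed 2-fold and 60 of 66 changed 4-fold were called, with 5 unchanged genes called. The simulation gave a gene the same SD in every group, drew genes independently and changed few of them. In the data, treated dKO female replicates 2 and 4 moved together and 29.7% of genes were called. The simulated counts therefore do not give the power or false calls of that comparison. Where a group was not above background, folds are lower bounds against each array's dimmest detected signal. Promoter windows and symbols came from RefSeq (GRCm38.p6, 26690 of 41174 probes named through it), probe positions from the files (mm9). The number of arrays limits the precision.

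The 10 genes were always named. Of each further list, at most 4 called genes with the largest difference per comparison were named, not all of those the rule allows, and Trp53, Mdm4, Atm and Chek2 always. Some items are not reported here. Genes and lists were chosen with earlier results of these data known. Alternatives were background correction, scaling, dim-probe filter, probe choice, samples fitted, slide, replicate number and array position as terms, variance model, each array left out and, added after seeing the data, treated dKO female replicates 2 and 4 left out together.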

Additional observations from a re-analysis of the deposited data

Results flagged for a closer look

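In untreated dKO females, Zmat3 of replicate 2 measured -0.62 against -0.93 to -0.88 in the other 3 arrays, a gap of 0.8291 of the group's range. Of 60 groups of 4 arrays checked, about 1 in 20 would stand out in this way by chance.

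The genotype by treatment interaction of Gadd45a in females was -2.11, its treatment differences of 1.46 in wild-type and -0.65 in dKO females having opposite signs. The sex by genotype interaction in treated mice was -3.31 for Cdkn1a, -1.95 for Phlda3 and 0.74 for Perp by limma. The 3 sex by genotype interactions did not pass without treated dKO female replicates 2 and 4, whereas that of Gadd45a did.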

How the results depend on the processing

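Over 13 alternatives that did not leave out a single array, the 25 called differences of the 10 genes were kept 233 times and lost 78 times, and 36 of 794 uncalled values changed sign. Calls were lost for 22 with array position as a term, 12 fitting only the groups compared, 7 with normexp, 6 without the dim-probe filter and 6 with slide as a fixed block. Position nearly coincides with group and cannot be told apart from it.

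With array position as a term, the number of the 10 genes called was 1 for genotype in untreated females and 0 for treatment in dKO females, genotype in treated females and males, sex in both genotypes and both interactions by limma, where 2, 1, 2, 6, 3, 2 and 7 had an unadjusted p under 0.05. Fitting only the groups compared gave 2 for treatment in dKO females, 0 for genotype in treated females (3 unadjusted), 0 for sex in wild type (6 unadjusted), 1 for sex in dKO and 0 for sex by genotype (6 unadjusted). It also gained 2 calls, Phlda3 for treatment in wild-type females and Cdkn1a for genotype in untreated females. Normexp gave 1 for genotype in untreated females, 0 for sex in wild type (6 unadjusted) and 1 for sex by genotype, and quantile normalization gave 2 for sex in wild type. Without the dim-probe filter, 1 was called for genotype in untreated females and 1 for sex in dKO. Slide as a fixed block gave 1 each for genotype in untreated females, sex in dKO and sex by genotype. With only arrays 1 and 3 of treated dKO females, chosen after seeing the data, the counts were 2 for treatment in dKO females, 2 for genotype in treated females, 1 for sex in dKO, 2 for genotype by treatment and 0 for sex by genotype (5 unadjusted), and Ccng1 reversed for genotype in treated females, from 0.12 to -0.40. Replicates 2 and 4 were its highest pair, so this reversal follows their omission and is no test. Of all genes, 16.5%, 11.6%, 5.53%, 1.74% and 3.84% were then called, in the same order of comparisons. Where no construction shows it, the cause was not tested.

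Leaving out 1 array gave 2 to 4 for treatment in wild-type and 4 to 7 in dKO females, 1 to 2 for genotype in untreated and 2 to 5 in treated females, 4 to 4 in treated males, 0 to 2 and 1 to 5 for sex in wild type and dKO, and 1 to 2 and 1 to 6 for the interactions. Array numbers did not pair samples: correlations of deviations ran from -0.34 to 0.34 over 28 same-numbered pairs, 5 above 0.1. With the replicate block, 4 of 25 calls were lost and 1 gene was called for sex in dKO.

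Median centring left 1254 of 3564 calls higher for treatment in wild-type females, against 1634 of 3315 with the 75th percentile. For genotype in treated males the split was 1769 of 4845 against 2791 of 4873, the median of all genes being -0.10 against 0.05. Normexp gave 1744 of 7067 against 2601 of 5737 for genotype in treated females, the median of all genes being -0.23 against -0.07.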
